A study of Mus musculus with 4 samples.

Results

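Heat-shock chaperones of the cytosol and mitochondria were followed across 4 arrays of RAW264.7 cells, a mouse macrophage line that stands in here for macrophages of a hypoxic tumor. The set held 38 genes, listed by gene symbol and not by a rule on measured values, although earlier results of these data were known. Chaperones of the endoplasmic reticulum were left out. Of these, 35 had a value, from 97 probe sets, out of 18194 genes measured. A probe set is a group of short probes for 1 transcript. Hsf1, the heat-shock transcription factor, Hsp90ab1, the constitutive cytosolic HSP90, and Ppid, an HSP90 cochaperone, had no probe set annotated with that symbol alone and were not analysed here.

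The conditions were hypoxia with IL6 (HC+IL6), hypoxia without it (HC), normoxia with IL6 (NC+IL6) and normoxia without it (NC). All cells were cultured for 4 days. Hypoxia was 1% oxygen, the sources used here do not give the oxygen level of normoxia, and IL6, an inflammatory cytokine, was used at 25 ng/ml. Each condition was measured on 1 array, so no difference below has a replicate check and no p-value is given. RAW264.7 is an established, transformed line and its response is that of 1 line, and the sources used here do not say how many cultures went into an array.

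Chaperones bind proteins that are not yet folded or have lost their fold and keep them from clumping. HSP70 proteins take up short exposed stretches of a client with the help of HSP40 proteins, which bring clients and start the ATP cycle, and of nucleotide exchange factors such as the HSP110 and BAG proteins, which end it. HSP90 then matures signaling proteins such as kinases and steroid receptors together with its cochaperones, the CCT ring folds actin and tubulin, and a separate set of chaperones folds proteins imported into mitochondria. Heat and other protein stress switch many of these genes on through HSF1, which binds repeats of the letters GAA in their promoters.

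The promoters of 4 members are shown because they belong to genes with different hypoxia ratios below. Hspa1b was the highest member in hypoxia, Fkbp4 the lowest, Hsph1 was low in both hypoxia comparisons, and Hspe1 shares its promoter with Hspd1. Each is the RefSeq window of 300 bases on GRCm38.p6, from 250 bases before the start of the gene to 50 bases after it, and capitals mark matches to a heat-shock element, GAANNTTC or TTCNNGAA. The windows lie at chr17:34959189-34959488 (minus strand) for Hspa1b, chr6:128438607-128438906 (minus strand) for Fkbp4, chr5:149636266-149636565 (minus strand) for Hsph1 and chr1:55087898-55088197 (plus strand) for Hspe1.
Hspa1b: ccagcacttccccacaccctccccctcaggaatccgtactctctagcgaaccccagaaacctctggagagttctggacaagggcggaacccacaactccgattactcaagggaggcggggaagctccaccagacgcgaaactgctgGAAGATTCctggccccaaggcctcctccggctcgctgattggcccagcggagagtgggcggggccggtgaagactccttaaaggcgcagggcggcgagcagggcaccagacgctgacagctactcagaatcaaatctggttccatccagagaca
Fkbp4: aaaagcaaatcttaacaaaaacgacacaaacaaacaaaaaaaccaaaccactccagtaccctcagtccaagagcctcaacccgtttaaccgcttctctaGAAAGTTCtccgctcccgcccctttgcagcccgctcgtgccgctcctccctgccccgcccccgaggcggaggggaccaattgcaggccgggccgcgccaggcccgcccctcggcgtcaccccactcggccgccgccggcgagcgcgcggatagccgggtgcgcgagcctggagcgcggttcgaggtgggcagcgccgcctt
Hsph1: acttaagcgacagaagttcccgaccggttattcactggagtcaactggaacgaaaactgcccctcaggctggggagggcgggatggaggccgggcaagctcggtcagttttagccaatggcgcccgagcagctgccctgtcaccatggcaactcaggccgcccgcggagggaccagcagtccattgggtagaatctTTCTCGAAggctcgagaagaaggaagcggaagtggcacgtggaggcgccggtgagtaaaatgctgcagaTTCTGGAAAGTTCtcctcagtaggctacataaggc
Hspe1: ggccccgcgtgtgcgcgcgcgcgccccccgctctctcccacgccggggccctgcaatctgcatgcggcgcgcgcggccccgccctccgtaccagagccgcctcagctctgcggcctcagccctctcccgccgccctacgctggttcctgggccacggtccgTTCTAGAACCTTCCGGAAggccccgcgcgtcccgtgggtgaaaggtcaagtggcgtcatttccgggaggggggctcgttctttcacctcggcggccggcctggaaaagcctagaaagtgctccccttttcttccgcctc
Hspa1b and Fkbp4, which lay at opposite ends of the hypoxia ratios, each held 1 head-to-head match. The windows of Hsph1 and Hspe1 held the longer element with 3 repeats, in which GAANNTTC is followed, after any pair of bases, by a further GAA on either strand. Hspe1 and Hspd1 start in opposite directions from the same stretch, and 1 window of Hspd1 shares 285 bases with that of Hspe1. A further window of Hspd1 held none of the heat-shock matches.

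Promoter windows were found for 30 of the 38 members, with 39 windows in all. The element with 3 repeats was in 7 of them (17.9%), against 0.603% of all 32817 windows, and the genes were Chordc1, Dnajb6, Hspd1, Hspe1 and Hsph1. The head-to-head pair GAANNTTC was in 14 windows (35.9%) of 12 genes, against 7.86% of all, and the tail-to-tail pair TTCNNGAA was in 11 (28.2%) of 9 genes, against 8.51%. Each match to the longer element holds a match to both pairs, so the 3 counts overlap. Windows overlap too. Both windows of Dnajb6 hold the same longer element, as do both of Hsph1, and Hspd1 and Hspe1 share theirs. The 7 windows therefore count some sites more than once. The hypoxia response core ACGTG was in 11 member windows (28.2%), against 19.6% of all, with both strands searched. Its variant GCGTG was in 22 (56.4%), against 32.4%. Overlapping windows enter these counts as well, such as both of Dnajb6 and both of Hsph1 for ACGTG. Member windows and all windows were not matched for base content, so the shares do not show an excess of hypoxia sites. The window of Hspa4l, a member with higher signal in hypoxia, and that of Ahsa1, a member with lower signal, held none of the heat-shock matches. These matches describe letters in a window and were not tested as binding sites.

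The values are log2 MAS5 signals, in which 1 unit is a 2-fold difference, on arrays scaled to the same trimmed mean. The background floor of an array was the signal that 95% of 86 probe sets for genes of other tissues stayed below. It lay at a log2 signal of 6.14 in HC+IL6, 6.64 in HC, 6.26 in NC+IL6 and 6.50 in NC, and between 39.5% and 46.2% of the 45101 probe sets were above it. All 12 macrophage markers were above the floor on every array, 0 markers of T cells, B cells and fibroblasts were, and Epcam, Kdr and S100a8 each passed it on at least 1 array. The 3' to 5' signal ratio of Actb was 1.62 in HC+IL6, 1.73 in HC, 1.41 in NC+IL6 and 1.54 in NC, so it was higher on both hypoxia arrays. That of Gapdh was 0.88 in HC+IL6, 0.87 in HC, 0.93 in NC+IL6 and 0.93 in NC, lower on both hypoxia arrays, and the part of either ratio in the results was not tested. A smaller share of cells carrying a transcript and less of it per cell cannot be told apart in bulk RNA. A gene with several probe sets is given by its brightest, and it is called higher or lower at 2-fold or more with the brighter array above the floor.

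Of the 35 members with a value, 33 were above the floor on all 4 arrays. Hspa1a and Hspb1 were above it in HC+IL6 only, the array with the lowest floor. Their signals there, 6.51 and 6.57, would lie under the floor of HC, at 6.64. The members gave bright signals, with 22 of 35 at a mean log2 signal of 12 or more, against 1272 of 18194 genes, although signals of different probe sets do not rank their transcripts.

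By their brightest probe sets, most chaperones were slightly lower in hypoxia, and few differed by much. In HC compared with NC macrophages, 2 of the 33 members above the floor were called higher, the HSP70 gene Hspa1b and the HSP40 gene Dnajb4, where 3.92% of 9595 genes were, and 0 were called lower, where 1.06% of genes were. In HC+IL6 compared with NC+IL6 macrophages, 1 of 35 was called higher, again Hspa1b, where 3.18% of 10328 genes were, and 1 was called lower, the HSP90 cochaperone gene Fkbp4, where 1.49% were. These shares are near those of all genes. Over all genes, 376 were called higher and 102 lower without IL6, against 258 and 186 after quantile normalization and 267 and 167 after cyclic loess. With IL6 the counts were 328 higher and 154 lower, against 212 and 251 after quantile normalization and 217 and 255 after cyclic loess.

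The shift of the whole set was small but went mostly 1 way. Over the 33 members above the floor on all 4 arrays, the log2 ratio of HC over NC was below 0 in 28 (84.8%), where 46.9% of the 8786 genes above all 4 floors were below 0. The ratio of HC+IL6 over NC+IL6 was below 0 in 26 (78.8%), where 48.8% of genes were. In both comparisons, which share no array, 25 members (75.8%) were below 0, where 35.3% of genes were. The median log2 ratio of the members was -0.31 without IL6 and -0.26 with it, against 0.04 and 0.01 for all genes. At a limit of 1.5-fold, 7 members were lower without IL6, where 6.88% of genes were, and 4 with IL6, where 6.69% were. At that limit 2 were higher without IL6, where 13.2% of genes were, and 3 with IL6 (Hspa1b, Dnajb4 and Hspa4l), where 11.6% were. The 4 lower with IL6 were Ahsa1, Fkbp4, Hspa9 and Hsph1, which also belong to the 7, beside Bag1, Hspd1 and Trap1.

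After the other scalings the direction of the median held, with more members above 0. The members below 0 numbered 27 without IL6 and 25 with it after quantile normalization, and 24 and 22 after cyclic loess. The medians were -0.26 and -0.23 after quantile normalization, and -0.23 and -0.22 after cyclic loess. With the mean over all probe sets of a gene, 22 of 33 members were below 0 without IL6, with a median of -0.25, and 21 of 34 with it, with a median of -0.09. Bright genes in general had ratios below 0 without IL6 as well. Among genes with a mean log2 signal from 12 to 14, the median of HC over NC was -0.43 for 13 members and -0.11 for all 1072 genes, and 12 members and 63.5% of genes were below 0. With IL6 the medians in that range were -0.30 for members and -0.07 for all genes. From 14 to 16, the median was -0.28 for 9 members and -0.10 for all 200 genes without IL6, and -0.13 and 0.06 with IL6.

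**Figure D1:**
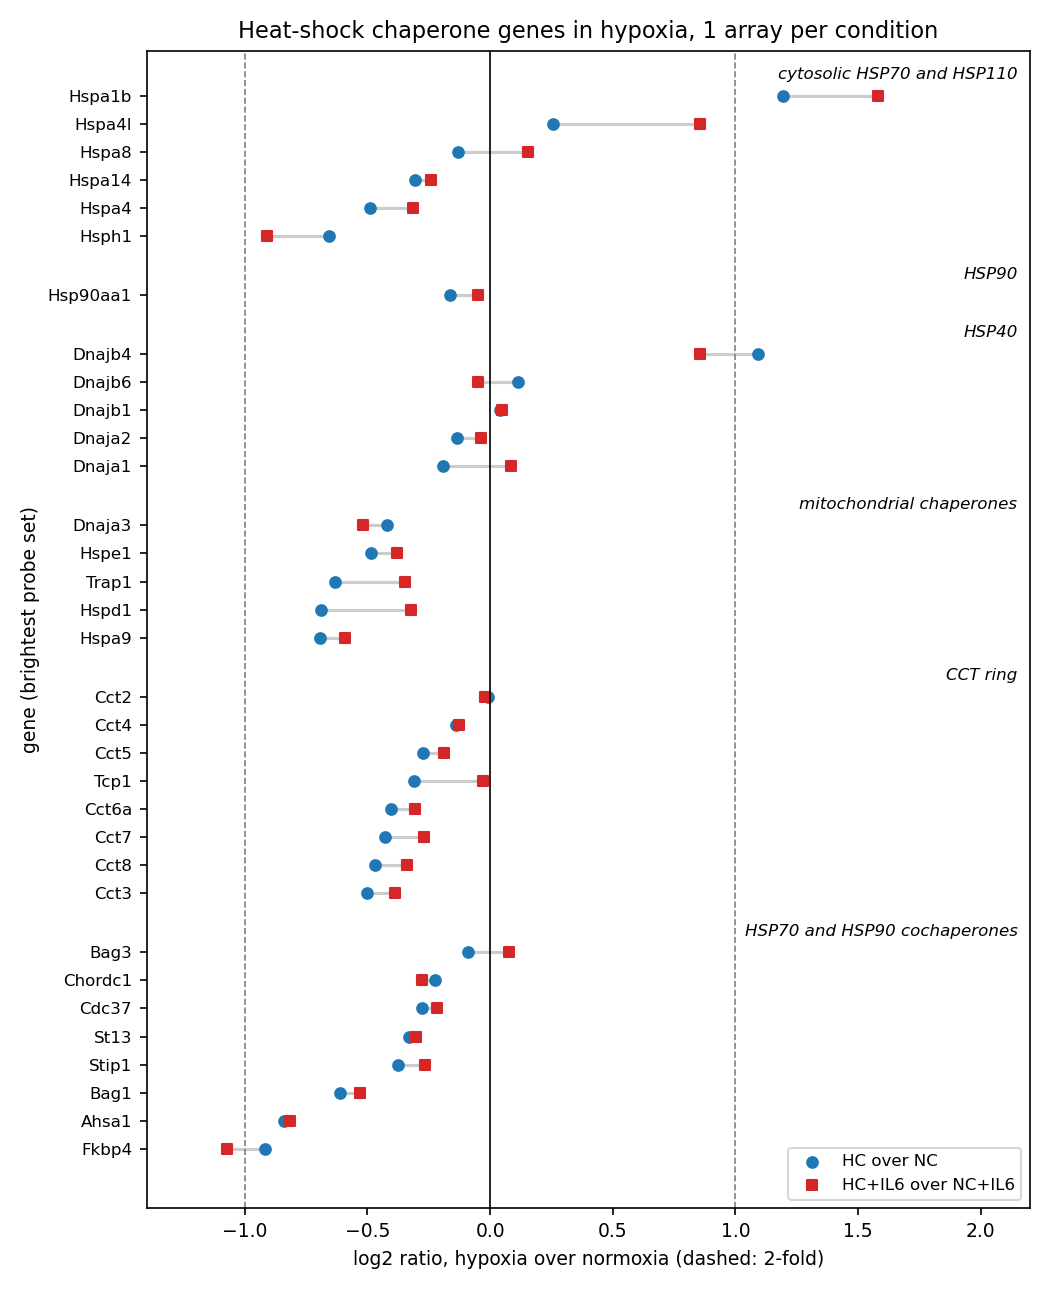
Log2 ratio of hypoxia over normoxia for the 33 chaperone genes above the floor on all 4 arrays, without IL6 (HC over NC, blue circles) and with IL6 (HC+IL6 over NC+IL6, red squares), 1 array per condition. Dashed lines mark 2-fold. Hspa1b lies farthest to the right at 1.19 and 1.58, Fkbp4 farthest to the left at -0.92 and -1.07, and 28 and 26 of the 33 genes lie below 0.

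The chaperone ratios of the hypoxia comparisons ran in parallel. Across the 33 genes the log2 ratios without and with IL6 had a Pearson's r of 0.93, and 0.89 without Hspa1b and Dnajb4, against 0.63 across 9454 genes. The sets are unlike, since the 9454 include genes under the floor on some arrays, while the 33 members are above it on all 4 and mostly bright. The points share the 4 arrays and their scaling, genes are not independent replicates, and the values describe these arrays.

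**Figure D2:**
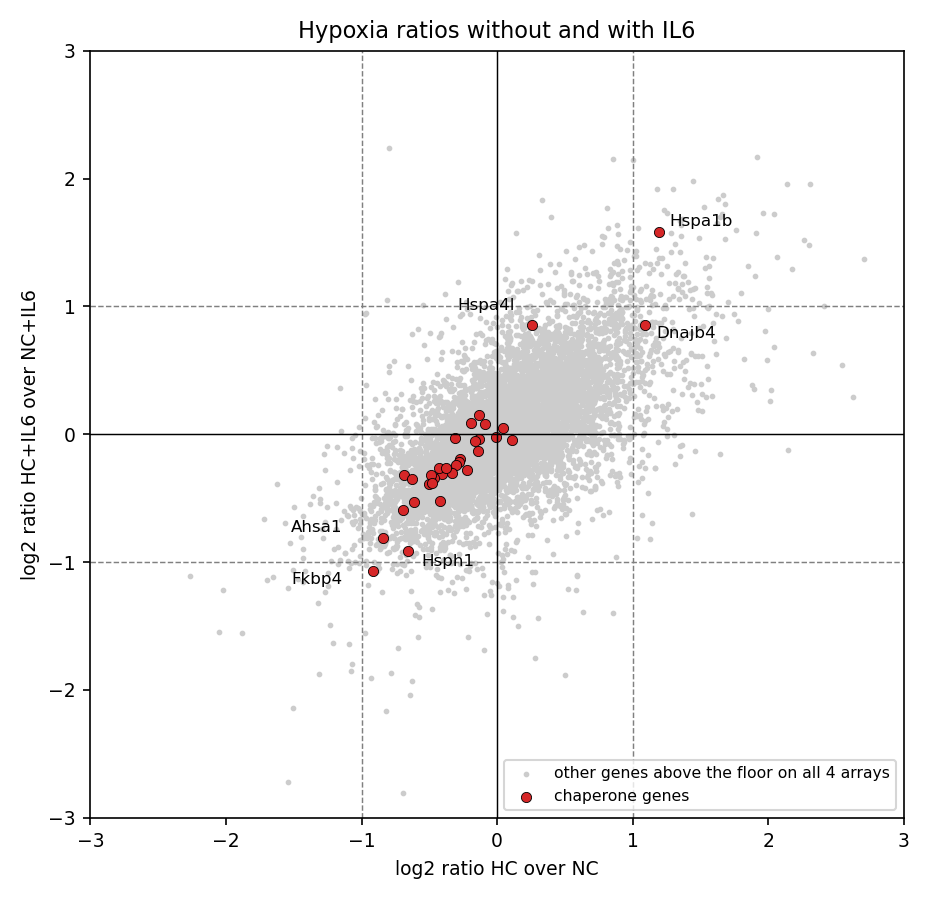
Log2 ratio of HC over NC (horizontal axis) against that of HC+IL6 over NC+IL6 (vertical axis) for genes above the floor on all 4 arrays, with the 33 chaperone genes in red and other genes in grey. Of 8786 genes, 3 lie outside the axes. The chaperones run along the diagonal, and 25 of the 33 lie below 0 on both axes.

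Among the cytosolic HSP70 genes, Hspa1b, the stress-inducible HSP70, stood apart. Its log2 signal was 10.14 in HC+IL6, 10.40 in HC, 8.56 in NC+IL6 and 9.20 in NC, so both hypoxia arrays were above both normoxia arrays. In hypoxia it was 2.29-fold higher without IL6 and, with IL6, 2.99-fold higher, the 214th highest of 9595 genes and the 48th highest of 10328. Its 3 probe sets had log2 ratios of 0.37 to 1.23 without IL6 and 1.58 to 2.44 with it, all positive. Hspa1a is a neighboring, nearly identical gene on chromosome 17, so how much of this signal belongs to each is uncertain. Its only probe set had log2 signals of 6.51 in HC+IL6, 5.56 in HC, 3.66 in NC+IL6 and 5.18 in NC, above the floor in HC+IL6 alone, and was there at least 1.19-fold above NC+IL6.

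Hspa8, the constitutive HSP70, did not follow Hspa1b. It had log2 signals of 15.39 in HC+IL6, 15.34 in HC, 15.24 in NC+IL6 and 15.47 in NC on arrays whose highest signals were between 15.54 and 15.71. Its log2 ratios were -0.13 without IL6 and 0.15 with it, and its 4 probe sets did not agree in sign. Hspa14, an HSP70 that works at the ribosome, had log2 ratios of -0.31 and -0.24, and its second probe set had -0.12 and 0.06.

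The 3 genes of the HSP110 branch, whose proteins release nucleotide from HSP70, had ratios of both signs. Hsph1, which encodes HSP110 itself, had log2 signals of 11.16 in HC+IL6, 11.46 in HC, 12.07 in NC+IL6 and 12.12 in NC. The hypoxia arrays were the lower ones, 1.58-fold without IL6 and 1.88-fold with it, and both of its probe sets had negative ratios in both comparisons. Hspa4l had 11.29 in HC+IL6, 10.39 in HC, 10.44 in NC+IL6 and 10.13 in NC. Its HC+IL6 array was above the others, and its log2 ratio was 0.26 without IL6 and 0.85 with it. All 5 of its probe sets were positive, from 0.26 to 1.20 without IL6 and from 0.45 to 1.87 with it, and the brightest gave the lowest of these ratios without IL6. Hspa4, the closest relative of Hspa4l, had log2 ratios of -0.49 and -0.31 from its brightest probe set. Its other 2 probe sets above the floor were positive, at 0.60 and 0.98 without IL6 and 0.23 and 0.43 with it, so its direction is uncertain.

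Of the 5 HSP40 genes, only Dnajb4 passed 2-fold in hypoxia by its brightest probe set. It had log2 signals of 10.28 in HC+IL6, 10.09 in HC, 9.42 in NC+IL6 and 8.99 in NC, with both hypoxia arrays above both normoxia arrays. In hypoxia it was higher 2.13-fold without IL6 and 1.81-fold with it. Its second probe set above the floor on all arrays had log2 ratios of 0.22 and 0.90, so the call without IL6 rests on the brightest.

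Dnajb1, the HSP40 that partners inducible HSP70, lay near 0, with 10.24 in HC+IL6, 10.73 in HC, 10.19 in NC+IL6 and 10.69 in NC and log2 ratios of 0.04 and 0.05. Dnajb6, which suppresses protein aggregation, had 12.17 in HC+IL6, 12.62 in HC, 12.22 in NC+IL6 and 12.50 in NC and log2 ratios of 0.11 and -0.05. Of the 4 probe sets of Dnajb6, 3 were positive in each hypoxia comparison, up to 0.80 without IL6 and 1.48 with it. In the brightest probe set of each of these genes the arrays with IL6 were lower than those without it. Dnaja2, a general HSP40, had 13.33 in HC+IL6, 13.38 in HC, 13.37 in NC+IL6 and 13.51 in NC, and Dnaja1 had log2 ratios of -0.19 and 0.09. A dim probe set of Dnaja2 had 0.49 without IL6 and 1.06 with it, past 2-fold. The probe sets of Dnaja1, Dnaja2 and Dnajb6 did not agree in sign in either comparison, nor did those of Dnajb1 without IL6. The median of the HSP40 genes, by their brightest probe sets, was 0.04 without IL6 and 0.05 with it.

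Hsp90aa1, the inducible HSP90, differed little between arrays, at 14.18 in HC+IL6, 14.05 in HC, 14.22 in NC+IL6 and 14.21 in NC. Its log2 ratios were -0.16 and -0.05, and its 2 other probe sets above the floor were also negative, at -0.42 and -0.33 without IL6 and -0.07 and -0.04 with it. Hspb1, the small heat-shock protein HSP27, had 6.57 in HC+IL6, 5.15 in HC, 5.94 in NC+IL6 and 5.74 in NC. It was above the floor in HC+IL6 alone, the array with the lowest floor, at least 1.24-fold higher there than in NC+IL6.

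**Figure D3:**
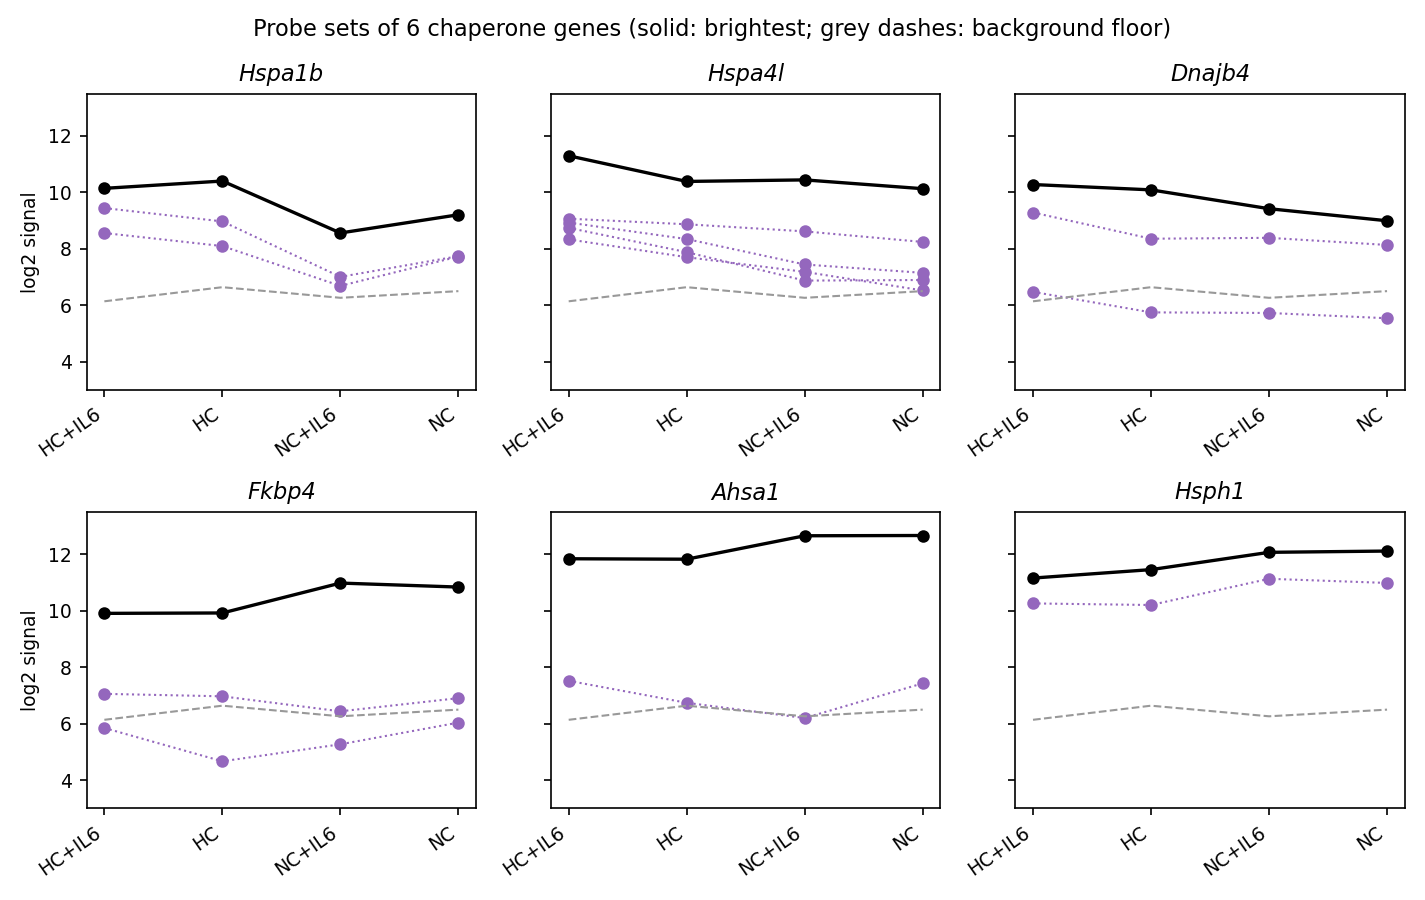
Log2 signal of every probe set of 6 chaperone genes on the HC+IL6, HC, NC+IL6 and NC arrays. The solid black line is the brightest probe set, purple dotted lines are the others and grey dashes mark the floor of each array. The 3 probe sets of Hspa1b and the 5 of Hspa4l were higher in hypoxia with and without IL6, both of Hsph1 were lower, those of Fkbp4 did not agree in sign in either comparison, and those of Ahsa1 did not with IL6.

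All 5 genes of mitochondrial chaperones had negative ratios in both hypoxia comparisons, and they also did after quantile normalization and cyclic loess. Their median log2 ratio was -0.63 without IL6 and -0.38 with it, the lowest of the role groups, and 0 of the 5 passed 2-fold. Hspa9, the mitochondrial HSP70 that pulls proteins in, had 13.29 in HC+IL6, 12.93 in HC, 13.89 in NC+IL6 and 13.63 in NC. The hypoxia arrays were lower 1.62-fold without IL6 and 1.51-fold with it. Of its 4 probe sets above the floor, all were negative with IL6 and 3 without it.

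Hspd1, or HSP60, the mitochondrial folding chamber, had 13.91 in HC+IL6, 13.75 in HC, 14.23 in NC+IL6 and 14.44 in NC, and log2 ratios of -0.69 and -0.32. Hspe1, or HSP10, the lid of that chamber, had 13.43 in HC+IL6, 13.37 in HC, 13.81 in NC+IL6 and 13.85 in NC, and log2 ratios of -0.48 and -0.38. These genes share the promoter stretch shown above, and the sign of their ratios was that of the other mitochondrial chaperones too. A part of the promoter in the ratios was not tested. Trap1, the mitochondrial HSP90, had 11.08 in HC+IL6, 10.96 in HC, 11.43 in NC+IL6 and 11.59 in NC, and log2 ratios of -0.63 and -0.35. Dnaja3, the mitochondrial HSP40, had 10.34 in HC+IL6, 10.28 in HC, 10.86 in NC+IL6 and 10.70 in NC, and log2 ratios of -0.42 and -0.52.

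The 8 subunit genes of the CCT ring had small ratios of the same sign in their brightest probe sets. All 8 were below 0 in both hypoxia comparisons and 0 passed 1.5-fold, with medians of -0.36 without IL6 and -0.23 with it. The ratios ran from -0.50 for Cct3 to -0.01 for Cct2 without IL6, and from -0.39 for Cct3 to -0.02 for Cct2 with it. Cct3 had log2 signals of 14.04 in HC+IL6, 13.94 in HC, 14.43 in NC+IL6 and 14.44 in NC. Cct2 had 14.65 in HC+IL6, 14.65 in HC, 14.67 in NC+IL6 and 14.66 in NC, and so was level across the arrays. After cyclic loess 6 of the 8 were below 0 in each comparison, and after quantile normalization 7 without IL6 and 8 with it. The probe sets of Cct3 and Cct4 did not agree in sign in either comparison, nor did those of Cct2 without IL6. Some dimmer probe sets passed 1.5-fold. Those of Cct3 included -1.03 and -0.79 without IL6 and -0.96 and -0.83 with it, and a dim one at 0.64 and 0.58. The second of Cct7 had -0.61 without IL6. With the mean over probe sets, 5 of the 8 genes were below 0 without IL6 and 7 with it.

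Among the cochaperones of HSP70 and HSP90, all 8 were below 0 without IL6 and 7 were with it, with medians of -0.35 and -0.29. Fkbp4, an immunophilin that serves HSP90 on steroid receptors, had 9.91 in HC+IL6, 9.92 in HC, 10.98 in NC+IL6 and 10.84 in NC. Both hypoxia arrays were below both normoxia arrays, 1.89-fold without IL6 and 2.10-fold with it. Its second probe set above the floor had log2 ratios of 0.06 and 0.62, so its call rests on the brightest probe set.

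Ahsa1, which stimulates the ATPase of HSP90, had 11.84 in HC+IL6, 11.83 in HC, 12.66 in NC+IL6 and 12.67 in NC. In hypoxia it was lower 1.79-fold without IL6 and 1.76-fold with it, while a second, dimmer probe set had log2 ratios of -0.69 and 1.26. Bag1, a nucleotide exchange factor of HSP70, had 12.04 in HC+IL6, 11.90 in HC, 12.57 in NC+IL6 and 12.51 in NC, and was 1.53-fold and 1.45-fold lower. In each of these genes the hypoxia arrays lay below the normoxia arrays.

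Chordc1, an HSP90 cochaperone, had 12.55 in HC+IL6, 12.65 in HC, 12.83 in NC+IL6 and 12.88 in NC. Stip1, which links HSP70 to HSP90, had 10.40 in HC+IL6, 10.24 in HC, 10.66 in NC+IL6 and 10.62 in NC. St13, which stabilizes the client-bound state of HSP70, had 12.07 in HC+IL6, 11.92 in HC, 12.37 in NC+IL6 and 12.25 in NC. The log2 ratios of the brightest probe sets of these 3 genes lay between -0.38 and -0.22, while the second probe set of St13, of like signal, had 0.28 and 0.05. Cdc37, which brings kinases to HSP90, had -0.28 and -0.21. Bag3, an exchange factor that is strongly induced by heat, had -0.09 without IL6 and 0.08 with it, and so did not share the ratio of Hspa1b.

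**Figure D4:**
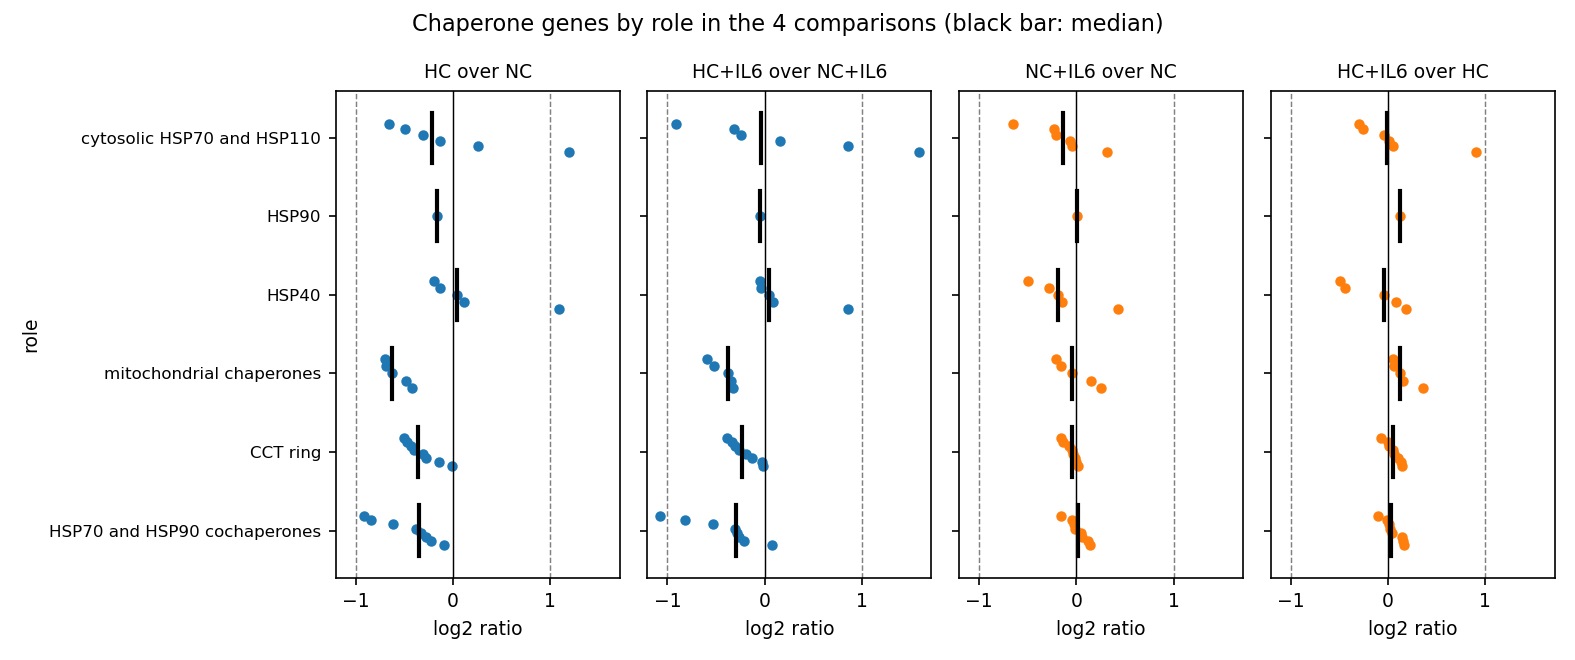
Log2 ratio of each chaperone gene by role in 4 comparisons, with hypoxia over normoxia in blue and IL6 over no IL6 in orange. Black bars are medians over the members above the floor on all 4 arrays. In hypoxia the medians of the mitochondrial chaperones (-0.63 and -0.38) and of the CCT ring (-0.36 and -0.23) lie below 0, and in the IL6 comparisons all medians lie within 0.2 of 0.

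No chaperone passed 2-fold with IL6 by its brightest probe set, in normoxia or in hypoxia. Dimmer probe sets of Hspa9 (1.24), Ahsa1 (-1.17) and Hspa1b (-1.04) did in normoxia. In hypoxia a dim probe set of Cct4 did, at 1.05 or more, with its HC signal under the floor. In NC+IL6 compared with NC, 0 of 33 members were called higher, where 3.51% of 9751 genes were, and 0 were called lower, where 1.22% were. In HC+IL6 compared with HC, 0 of 35 were called higher, where 2.35% of 10246 genes were, and 0 lower, where 2.17% were. The median log2 ratio was -0.05 in normoxia and 0.05 in hypoxia, against -0.04 and -0.04 for all genes, and in normoxia it was 0.00 after cyclic loess. In normoxia 23 members (69.7%) were below 0, where 54.7% of genes were, and after cyclic loess 16 were. In hypoxia 24 (72.7%) were above 0, where 45.7% of genes were, and after cyclic loess 23 were.

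By brightest probe sets, Hspa1b was the only member lower at 1.5-fold with IL6 in normoxia, where 7.01% of genes were. It was 1.56-fold lower, and all 3 of its probe sets were negative, from -1.04 to -0.65. In hypoxia it was 1.20-fold lower, and its other 2 probe sets were positive, at 0.46 and 0.47. Hspa4l was the only member higher at 1.5-fold with IL6 in hypoxia by brightest probe sets, where 7.47% of genes were. It was 1.88-fold higher, and its 5 probe sets had log2 ratios from 0.20 to 0.91. In normoxia it had 0.31, with 1 probe set at -0.02. Dimmer probe sets of other members passed 1.5-fold in hypoxia as well. Those of Dnajb6 (0.97), Dnajb4 (0.93), Ahsa1 (0.78) and Hspa8 (0.65) were higher, beside that of Cct4 above. Those of Hspa4 were lower, at -0.93 and -0.79, against -0.04 for its brightest. In normoxia those of Ahsa1 (-1.17) and Dnaja2 (-0.59) were lower.

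Dnajb1 had a log2 ratio of -0.49 with IL6 in normoxia and -0.49 in hypoxia, but its second probe set, of like signal, had 0.19 and 0.56. Dnajb6 had -0.29 and -0.45, but 3 of its 4 probe sets were above 0 in hypoxia, up to 0.97, and 2 were in normoxia. Hspa9 was the gene of the mitochondrial group with the highest IL6 ratios, at 0.26 and 0.36, and Dnajb4 had 0.43 and 0.19. The 5 mitochondrial chaperones were all above 0 with IL6 in hypoxia, with a median of 0.12, and 2 of 5 were in normoxia. The HC array that enters these hypoxia ratios is also the one compared with NC.

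The hypoxia ratio of most members was slightly less negative with IL6 than without it. The difference between the log2 ratios had a median of 0.10, and 26 of 33 members were above 0 (49.9% of the 8786 genes were). Bright genes in general moved this way as well. At a mean log2 signal from 14 to 16, the median of all genes was -0.10 without IL6 and 0.06 with it. From 12 to 14 it was -0.11 and -0.07. The medians of members without and with IL6 lay closer together after quantile normalization (-0.26 and -0.23) and cyclic loess (-0.23 and -0.22). From brightest probe sets, the difference ran from -0.25 for Hsph1 to 0.60 for Hspa4l. At that level 0 of 33 reached a size of 1, where 3.32% of 9454 genes did. It was 0.39 for Hspa1b, 0.37 for Hspd1, 0.28 for Trap1, -0.16 for Fkbp4 and -0.24 for Dnajb4. Dimmer probe sets gave other differences. Those of Hspa1b had log2 ratios of 0.37 and 1.23 without IL6 and 1.87 and 2.44 with it. The second of Dnajb4 had 0.22 without IL6 and 0.90 with it, and that of Ahsa1 had -0.69 and 1.26. A dim probe set of Hspa9 went the other way, at 0.09 and -0.95. The log2 ratios of probe sets of 1 gene had an SD of 0.35 without IL6 and 0.36 with it over all genes, and of 0.38 and 0.40 over members. That SD is larger than most of the differences from brightest probe sets and than the median shift of the set. It measures disagreement between probe sets, not between cultures. Of 25 members with 2 or more probe sets above the floor, all agreed in sign in 13 without IL6 and in 14 with it.

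Medians of related chaperone lists outside the set were also below 0 in hypoxia. Of 30 other cytosolic chaperone genes, 26 were above the floor without IL6 and 27 with it, 0 passed 2-fold in either hypoxia comparison, and the medians were -0.16 and -0.05. In this list Dnajb2, an HSP40, was at least 2.55-fold higher with IL6 in hypoxia, as it reached 7.99 in HC+IL6 against 6.56 in HC, under the floor of that array. Of 10 genes for prefoldin, which hands actin and tubulin to CCT, and for CCT helpers, 9 were above the floor, 0 passed 2-fold and the medians were -0.11 and -0.10. Pfdn1, a prefoldin subunit, had log2 ratios of -0.60 and -0.63, and Pdcl, a phosducin-like helper, had 0.58 and 0.29.

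Of 15 other mitochondrial chaperone and protease genes, 14 were above the floor, with medians of -0.29 without IL6 and -0.20 with it. Htra2, a protease of the space between the mitochondrial membranes, had log2 signals of 10.47 in HC+IL6 against 11.47 in NC+IL6, and a log2 ratio of -0.50 without IL6. It was, in hypoxia with IL6, the only gene of this list to pass 2-fold. The difference between the set and these lists was not tested.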

How the data were processed

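RNA of RAW264.7 cells from 4 conditions was measured on 1 Affymetrix mouse array each. The authors deposited log2 signals of 45101 probe sets, made with MAS5, and no source used here gives its version. Trimmed by 2% at each end, the signals of every array averaged 500, and signals of 1 or less are listed as 0. The depth of an array is not defined as for reads, and precision is limited by the number of arrays.

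Log2 ratios and folds were computed from these values with pandas 2.3.3 and numpy 2.4.6 in Python 3.11.15, and drawn with matplotlib 3.10.9. Probe sets were named from the platform annotation, in which 34958 carry 1 symbol, 932 carry several, and 9211 of the deposited probe sets do not appear. Of those with 1 symbol, 34754 had an Entrez number of a RefSeq gene of GRCm38.p6, and 0 symbols differed. The floor of each array came from 60 of 65 listed background genes. A signal under its floor was raised to it, and no fold was taken with both arrays under the floor. No test was run, since there is 1 array per condition.

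The members and gene lists were chosen with earlier results of these data known. All 38 members could be named. Array values were given for members past 2-fold, for the 5 highest and 5 lowest of each comparison and for the brightest of each role. Cct3, Trap1 and other genes given more fully than this rule asks were chosen after their values were seen. From other lists, genes past 2-fold or the 2 with the largest ratios were named, and of the mitochondrial and cytosolic lists only those past 2-fold. Alternatives were quantile normalization and cyclic loess (limma 3.58.1, R 4.3.3), no floor, a stricter floor, background added to every signal, the mean over probe sets, probe sets whose name ends in plain _at, and a limit of 1.5-fold. The calculations were tested on simulated data with planted shifts past 2-fold and little noise. That checks the code and does not show how reliable the calls are.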

Additional observations from a re-analysis of the deposited data

How the results depend on the processing

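No paired analysis was possible because each condition has 1 array, and for the same reason no replicate could be left out. Quantile normalization, cyclic loess and the stricter floor gave the same called members as the values reported: Hspa1b and Dnajb4 higher without IL6, Hspa1b higher and Fkbp4 lower with it. Without a floor, 2 members were higher in HC+IL6 over NC+IL6 (Hspa1a added), 1 was lower in NC+IL6 over NC (Hspa1a) and 1 was higher in HC+IL6 over HC (Hspb1), all from signals near or under background. With background added to every signal, these counts were 2, 0 and 1. With the mean over probe sets, 0 members were higher in HC over NC, 2 were higher in HC+IL6 over NC+IL6 (Hspa1b and Hspa4l) and 0 were lower, and the median of that comparison was -0.09 over 34 members, against -0.24 over 35 from the brightest probe sets. In that setting 1 member was higher in NC+IL6 over NC and 1 in HC+IL6 over HC, in both cases Cct8, whose second probe set was under the floor on all 4 arrays. With plain _at probe sets, 1 member was higher in HC over NC (Dnajb4), 0 were lower in HC+IL6 over NC+IL6, and 1 was lower in NC+IL6 over NC (Hspa1b). The log2 ratio of Fkbp4 in HC+IL6 over NC+IL6 reversed, to 0.04 with the mean over probe sets and 0.62 with plain _at probe sets. At 1.5-fold, 7 members were lower in HC over NC, 3 were higher and 4 lower in HC+IL6 over NC+IL6, 1 was lower in NC+IL6 over NC and 1 was higher in HC+IL6 over HC. Of 928 values of single members under these settings, 875 moved less than the spread between probe sets. That total includes settings that could hardly move a value. Removing the floor cannot move a member above it on all 4 arrays, and the stricter floor moved 0 of 132 values. Where the probe sets changed, fewer values held: 103 of 134 with the mean over probe sets and 102 of 118 with plain _at probe sets. In all, 79 values changed sign: 12 after quantile normalization, 18 after cyclic loess, 35 with the mean over probe sets and 14 with plain _at probe sets. With the other floors or background added, 0 did. Of the 79, 10 had a reported size past that spread, from Fkbp4, Hspa4, Dnajb1, Dnajb6, Cct3, Cct8 and Ahsa1, among them Ahsa1 at 0.25 in HC+IL6 over NC+IL6 (-0.81 as reported) and Cct8 at 0.88 in HC over NC (-0.47 as reported), both with the mean over probe sets. Hspa1a and Hspb1, at or under background on most arrays, have only bounds.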
